A study of Drosophila melanogaster with 36 samples.

Results

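The probe sets described here are the transcripts of male Drosophila melanogaster fat body that peaked around the middle of the light phase in flies labelled WT, and the same probe sets were then followed in flies labelled dnClk. They were chosen on the WT values: a 24 h cosine and sine curve was fitted to the 24 WT arrays, and a probe set was kept where the ordinary F test gave p under 0.01 and the fitted peak lay from ZT 3 to under ZT 9, ZT being hours after lights on. This took 22 of the 11261 tested probe sets, which are the 60% with the highest mean signal. Of the 22, 17 carry 1 gene symbol, 1 carries the symbols of both Unc-115a and Unc-115b, and 4 carry none and go by their probe set names. The 8 core clock genes Clk, cyc, per, tim, vri, Pdp1, cwo and cry were left out by the rule, and 1 of their probe sets, for cry, would have qualified. Mid-day was the least populated phase, with 22 of the 382 probe sets outside the core clock that had p under 0.01, against 62 peaking around dawn, 108 around dusk and 190 in mid-night. Evenly spread p-values and peaks would put 28.2 probe sets inside the rule, so the number of members is no larger than such a spread gives.

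The dnClk group is 12 arrays, 1 every 4 h over 2 days, from adult males whose label gives the genotype only as dnClk, with no driver named in the labels. The WT group is 24 arrays, 1 every 2 h over the same 2 days, from males of genotype w; UAS-dnClk/+, which carry the transgene, also with no driver named. Both groups were newly eclosed flies held for 5 days in 12 h light and 12 h dark at 25 °C and collected from day 6. Each array holds the abdominal fat bodies of 10 flies, and no time point was replicated, so the p-values measure the spread of arrays around a fitted curve.

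In Drosophila the transcription factors Clock (Clk) and Cycle switch on genes through E-box elements, among them per and tim, whose products return to the nucleus and shut Clock and Cycle off. A dominant-negative Clock (dnClk) pairs with Cycle but lacks the activity needed to switch on transcription. The fat body stores lipid and glycogen, secretes haemolymph proteins and antimicrobial peptides, detoxifies, and holds a clock of its own that is influenced by feeding as well as by light. Transcripts that crest in the light phase are out of phase with the classical E-box targets, which crest in the evening or early night.

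The arrays of the genotypes differed as wholes. Hybridisation controls, bacterial transcripts added to each sample, lay at 9.87 to 10.61 log2 units in dnClk and 11.54 to 12.67 in WT, without overlap. The 99th percentile of intensity did not overlap either, at 1593 to 2088 in dnClk and 2692 to 4438 in WT. In any comparison of levels or amplitudes the genotype therefore cannot be told apart from the way its arrays were processed. Over all tested probe sets the median log2 level was 0.25 higher in dnClk. Fat body markers were lower in dnClk (14 of 16 genes, limma adjusted p under 0.05, 0 higher), where 17.7% of all tested probe sets were lower. Markers of some other tissues were mostly higher, with 10 of 11 haemocyte genes (1 lower), 8 of 10 accessory gland genes and 7 of 8 neuron genes (1 lower), where 39.3% of all tested probe sets were higher. The other marker lists were not. Muscle had 4 higher and 6 lower of 15 genes, oenocyte 2 and 4 of 9, and midgut 1 and 2 of 9. Malpighian tubule had 0 and 0 of 6, and testis 1 and 0 of 20. The part of haemocyte and neuron tissue in the level differences of the 22 was not tested. In bulk tissue, fewer cells of a type and less RNA per cell cannot be told apart. The mean of 20 testis genes, markers of another abdominal tissue, ran from 6.76 to 9.46 log2 units over the dnClk arrays and from 5.02 to 10.24 over the WT arrays. In the WT fit this testis mean itself crested at ZT 3.63 with an amplitude of 0.997, inside the mid-day window, although 0 of the 20 testis genes reached p under 0.01 by the F test of the rule.

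**Figure D1:**
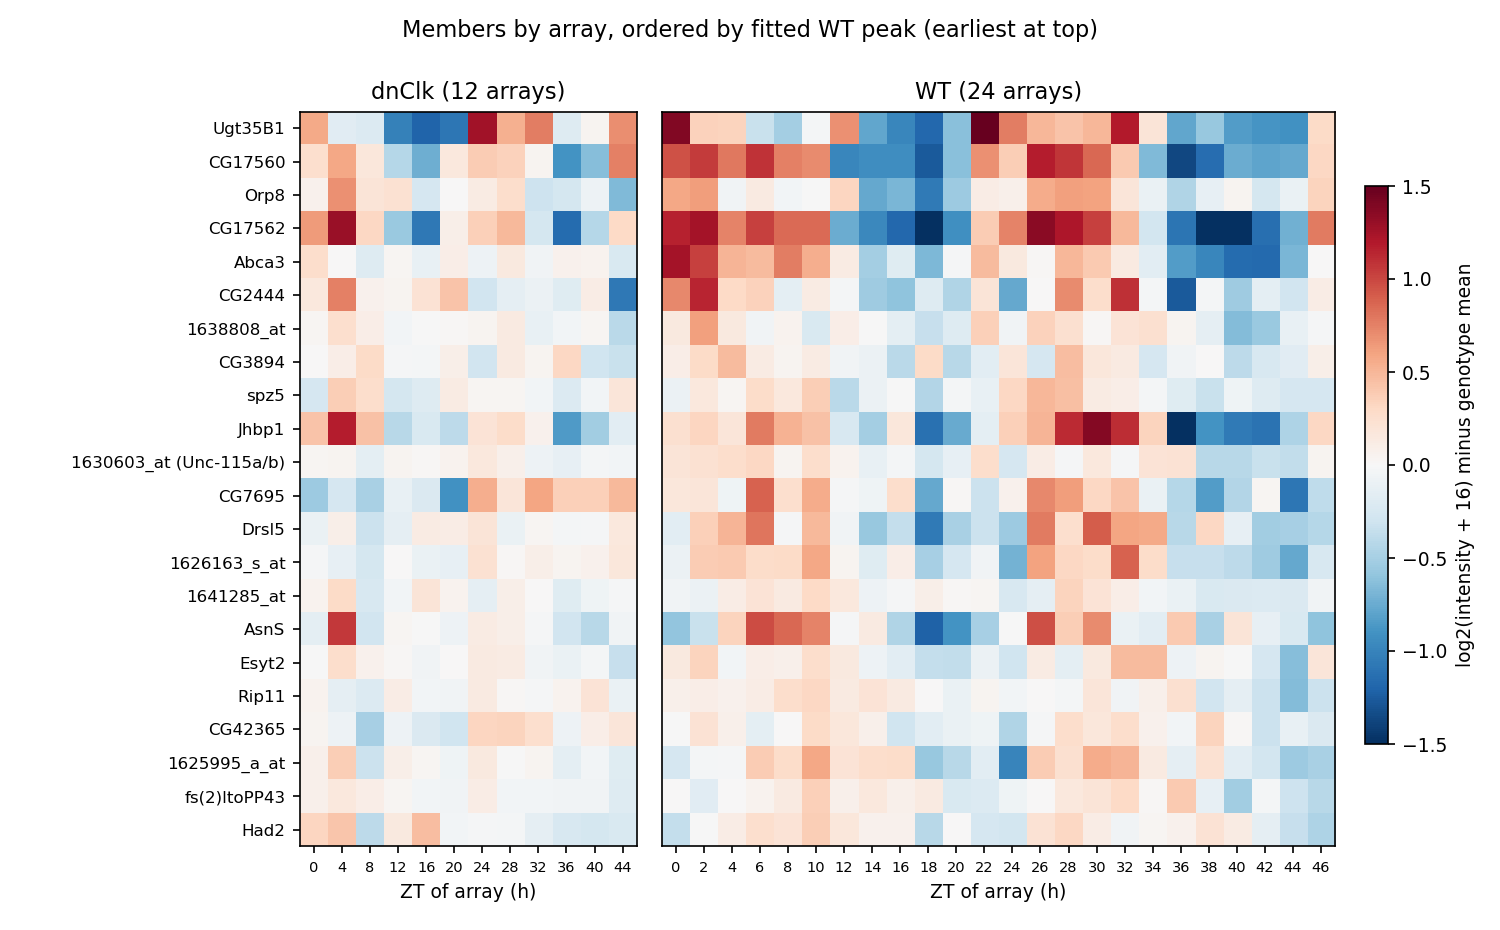
Each line of the heat map is 1 of the 22 probe sets, ordered by fitted WT peak from ZT 3.15 (Ugt35B1) at the top to ZT 8.98 (Had2) at the bottom, and each column is 1 array (12 dnClk, 24 WT), coloured by log2(intensity + 16) minus the probe set's mean in that genotype. The day and night blocks seen in WT, which the rule selected for, can be seen in part in dnClk for CG17562, CG17560 and Jhbp1. Their dnClk amplitudes are 0.62 to 0.86. For CG17562 and CG17560 the dnClk arrays at ZT 20 and 44 overlap those of mid-day. The blocks are faint where the dnClk amplitude is under 0.15.

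In dnClk, 0 of the 22 passed limma's test for a 24 h rhythm at an adjusted p under 0.05, where 0.0355% of all tested probe sets did. At an unadjusted p under 0.05 there were 3 (CG17562, CG17560 and Jhbp1), 13.6% of the 22 against 1.72% of all tested probe sets. The other 19 had unadjusted p from 0.075 upward. The median dnClk amplitude of the 22, the distance from fitted mean to peak, was 0.13 log2 units, close to the 0.12 of all tested probe sets. The range was 0.05 (Abca3) to 0.86 (CG17562), and 15 of the 22 were under 0.15. At the 12 times shared by both genotypes the WT amplitudes of the 22 had a median of 0.37, against 0.17 for all tested probe sets. The fitted amplitude was lower in dnClk than in WT at those times for 22 of 22, but the WT values are those that chose the probe sets, so this count is a description with no test. The share of all tested probe sets with a lower dnClk amplitude is not given. Their median amplitude was also lower in dnClk, at 0.12 against 0.17.

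**Figure D2:**
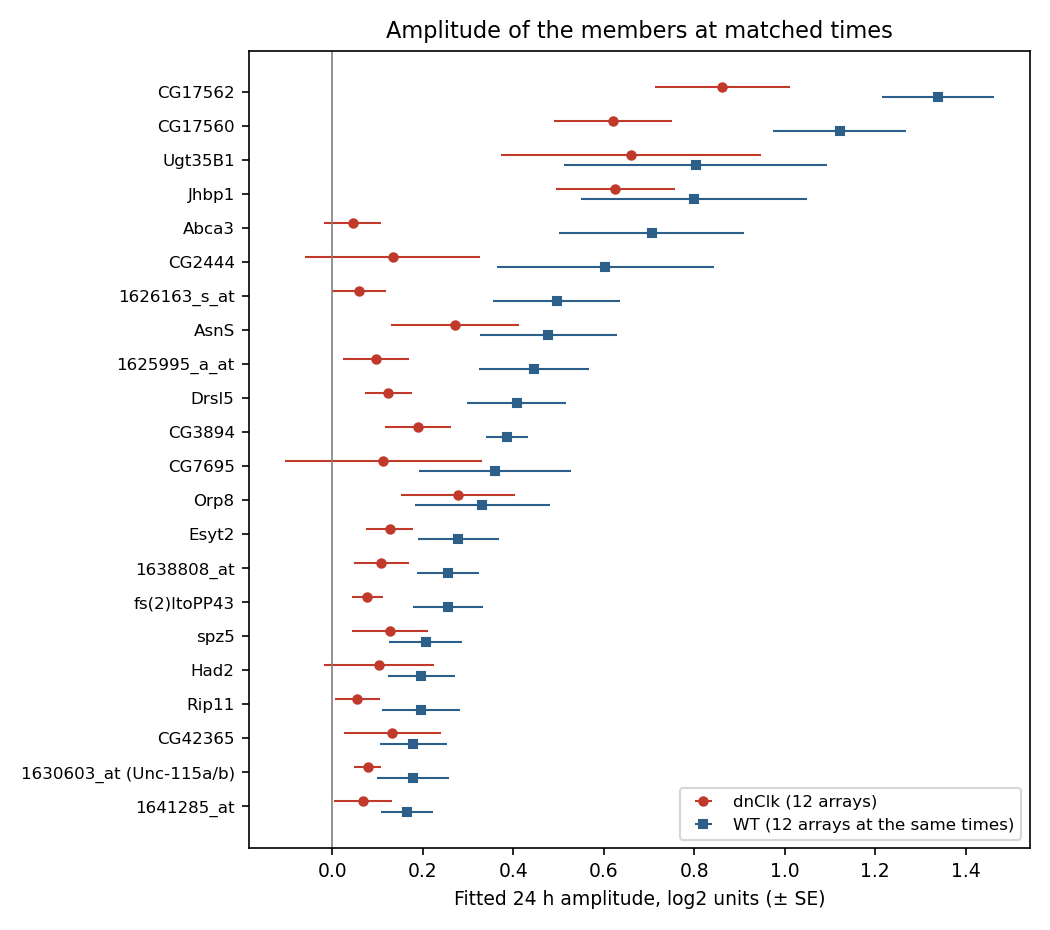
Points show the fitted 24 h amplitude in log2 units (bars: standard error) of each of the 22 probe sets in 12 dnClk arrays and in the 12 WT arrays taken at the same times. CG17562, Ugt35B1, Jhbp1 and CG17560 keep dnClk amplitudes of 0.62 to 0.86, while the remaining 18 are at 0.28 or less.

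The largest mid-day rhythms belonged to CG17562 and CG17560, neighbouring genes on 3R that encode predicted fatty acyl-CoA reductases, enzymes that turn fatty acyl-CoA into fatty alcohol. CG17562 had intensities of 312.1 at the lowest, 824.5 at the median and 1778.3 at the highest over the dnClk arrays, against 266.4, 1197.5 and 2264.8 over the WT arrays. Its lowest dnClk array was that at ZT 36 and its highest that at ZT 4. At the mid-day times ZT 4, 8, 28 and 32 the dnClk arrays read 1778.3, 895.6, 1010.9 and 593.4, and at the mid-night times ZT 16, 20, 40 and 44 they read 332.3, 764.4, 529.2 and 884.6. The WT arrays at the same mid-day times read 1478.4, 1599.8, 2057.9 and 1241.8, and at the mid-night times 378.7, 455.5, 297.5 and 524.7. Day and night were fully separated in WT, while in dnClk the readings at ZT 20 and 44 overlapped those of mid-day. The fitted amplitude was 0.86 ± 0.15 in dnClk (SE, 12 arrays; limma unadjusted p = 0.00022, adjusted p = 0.25), a 3.31-fold change from trough to peak. In WT it was 1.40 ± 0.11 (SE, 24 arrays), a 6.94-fold change. The dnClk peak stood at ZT 1.96 ± 0.66 h and the WT peak at ZT 3.68 ± 0.30 h (SE).

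CG17560 followed its neighbour. Its dnClk arrays at the 4 mid-day times read 2407.7, 1810.6, 2045.7 and 1651.8, and at the 4 mid-night times 961.1, 1788.7, 1022.9 and 2727.8. The reading at ZT 44 was the highest of all 12 dnClk arrays, and the one at ZT 36 (856.0) the lowest. The WT arrays at the same mid-day times read 2774.2, 2702.7, 3362.9 and 2091.6, and at mid-night 823.9, 1023.7, 942.2 and 927.0, with no overlap. The dnClk amplitude was 0.62 ± 0.13 with a peak at ZT 1.46 ± 0.80 h (SE, 12 arrays; limma unadjusted p = 0.0012, adjusted p = 0.67), and the WT amplitude 1.17 ± 0.11 with a peak at ZT 3.43 ± 0.34 h (SE, 24 arrays). In dnClk both genes were lowest at ZT 16 and 36 and climbed before lights on. The next gene in the row, CG14893, another predicted member of the family, did not reach the p of the rule in WT (F test p = 0.025). Its fitted WT curve crested at ZT 12.9, with an amplitude of 0.71 ± 0.24 (SE). In dnClk its fitted peak was at ZT 5.64, with an amplitude of 0.49 ± 0.30 (SE; limma unadjusted p = 0.23). How far the probes of these related genes also bind each other's transcripts was not assessed. In all, 13 fatty acyl-CoA reductase genes were tested, of which 6 had p under 0.01 in the WT fit at any phase and 5 an unadjusted p under 0.05 in dnClk, with 0 adjusted calls by limma. The others with both were CG1441, Sgp and CG12268, whose WT peaks at ZT 22.3, 0.25 and 22.1 lay before the mid-day window. CG17562 and CG17560 are in both counts, and the WT p chose them. Of the 11261 tested probe sets, 382 outside the core clock had p under 0.01 in the WT fit. In dnClk 1.72% had an unadjusted p under 0.05 by limma. The same background holds for the family counts below.

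Jhbp1 encodes a member of the takeout-like family of predicted juvenile hormone binding proteins, small secreted carriers of hydrophobic ligands. Its dnClk arrays read 1141.7, 677.8, 604.0 and 521.8 at the mid-day times and 420.1, 373.5, 340.7 and 442.3 at the mid-night times. The WT arrays read 261.8, 334.6, 514.7 and 512.7 at mid-day and 260.2, 128.9, 101.4 and 162.3 at mid-night. It was the only probe set of the 22 with all 4 mid-day dnClk arrays above all 4 mid-night ones, 4.55% of the 22 against 0.817% of all tested probe sets. Its amplitude was 0.63 ± 0.13 in dnClk (SE, 12 arrays; limma unadjusted p = 0.0012, adjusted p = 0.67) and 0.89 ± 0.13 in WT (SE, 24 arrays), and the peak stood at ZT 3.26 ± 0.80 h in dnClk and ZT 4.76 ± 0.57 h in WT (SE). The reading at ZT 4 stood far above the rest in dnClk, and without that array the amplitude was 0.50 ± 0.11 (SE, 11 of the arrays).

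Jhbp1 was also raised in level, 2.09-fold in dnClk (log2 difference 1.07 ± 0.15, SE; limma adjusted p = 1.7e-07). On the linear scale the mean of the mid-day arrays exceeded that of the mid-night arrays by 342.2 units in dnClk, or 207.0 without the array at ZT 4, and by 242.8 in WT at the same times. Of 11 tested genes of juvenile hormone metabolism and binding, 3 had p under 0.01 in the WT fit at any phase. Besides Jhbp1 these were Jhe, the juvenile hormone esterase, which peaked earlier at ZT 1.60, and Jhbp7, which peaked later at ZT 11.5. Jhbp11 lay just past the p of the rule (p = 0.012 in WT, peak at ZT 8.09) and had a dnClk amplitude of 0.33 against 0.36 in WT. In the same list limma called 0 rhythms in dnClk, with 3 at an unadjusted p under 0.05.

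Ugt35B1, a UDP-glycosyltransferase of the family that conjugates sugars to small lipophilic molecules, had the earliest WT peak, ZT 3.15 ± 0.98 h (SE). Its intensities ran from 76.7 at ZT 16 to 497.1 at ZT 24 in dnClk, with a median of 189.6, and from 49.5 at ZT 18 to 500.8 at ZT 22 in WT, with a median of 140.65. The highest array of each genotype thus fell around the end of the night, outside mid-day. The amplitude was 0.66 ± 0.29 in dnClk (SE, 12 arrays; limma unadjusted p = 0.075, adjusted p = 0.86) and 0.74 ± 0.19 in WT (SE, 24 arrays), both with wide errors. Of 16 tested genes of the family only Ugt36D1 also had p under 0.01 in the WT fit; it peaked at ZT 2.94, just before the window, with an amplitude of 0.70 in dnClk (limma unadjusted p = 0.00078) and 1.10 in WT. Ugt35A1, which lies beside Ugt35B1, had a WT amplitude of 0.08.

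**Figure D3:**
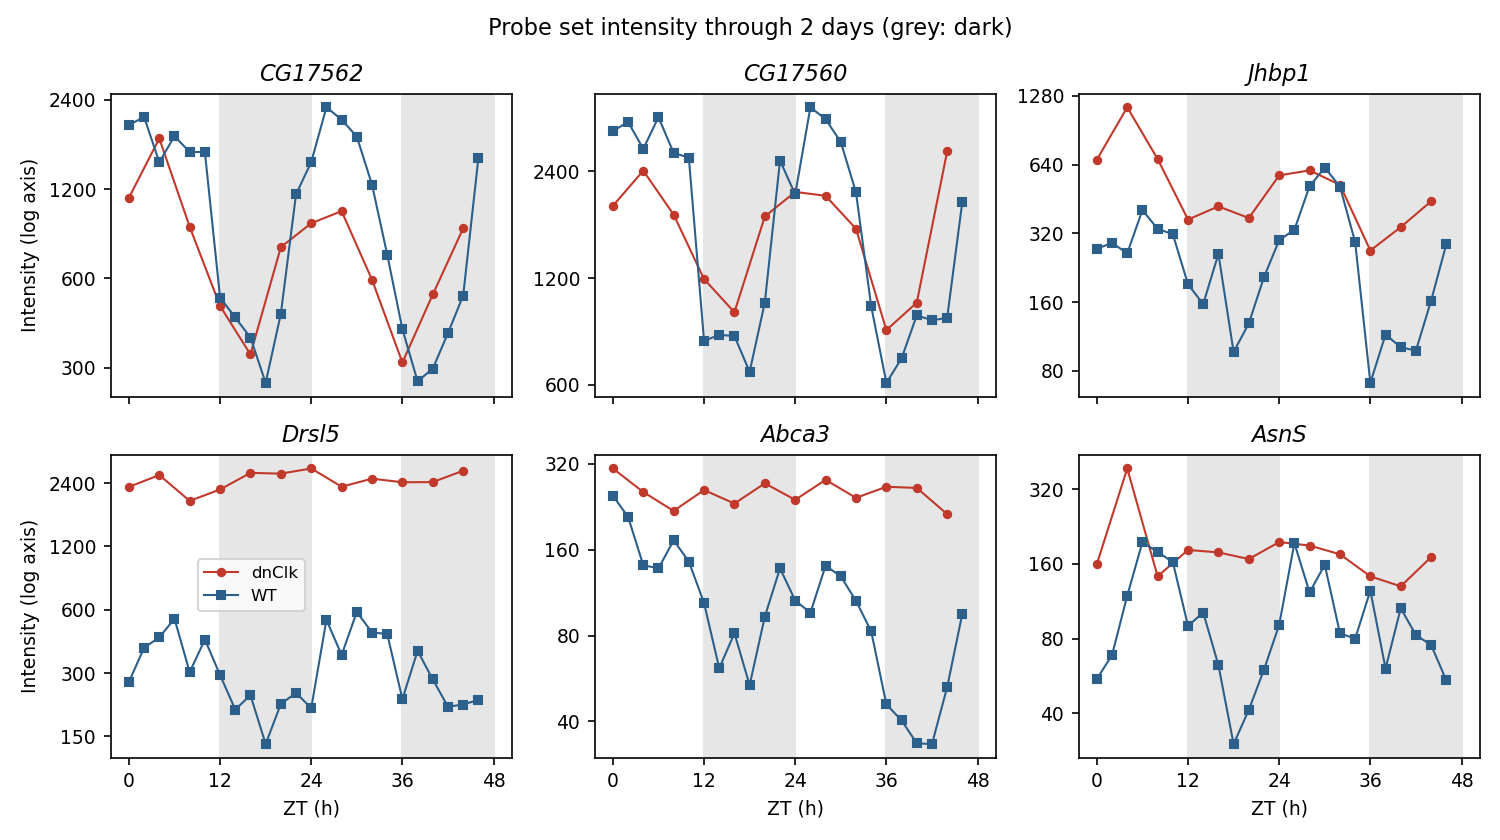
Intensity on a log axis is plotted against ZT over 2 days for 6 of the probe sets, in 12 dnClk and 24 WT arrays, with the dark phases shaded. On each day and in both genotypes, CG17562, CG17560 and Jhbp1 read lower at clock times ZT 12 and 16 than at ZT 0 and 4. In dnClk the highest CG17560 array lies in the dark, at ZT 44. Drsl5 and Abca3 are near flat on this axis and above WT in dnClk, and the AsnS course in dnClk holds 1 high array at ZT 4.

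Other probe sets with sizeable WT rhythms had small 24 h amplitudes on the log2 scale in dnClk, at a higher signal. Drsl5, of the drosomycin-like family of antifungal peptides, read 1975.9 at the lowest, 2473 at the median and 2817.9 at the highest over the dnClk arrays, against 137.8, 286.6 and 585.6 over the WT arrays. Every dnClk array thus exceeded every WT array, and the level was 7.72-fold higher in dnClk (log2 difference 2.95 ± 0.10, SE; limma adjusted p = 6.6e-23). Its amplitude was 0.12 ± 0.05 in dnClk, with a fitted peak at ZT 20.7 and limma unadjusted p = 0.16, and 0.61 ± 0.09 in WT with a peak at ZT 6.39. A log2 amplitude shrinks when a constant signal is added, so the linear scale was examined too. There the mean of the mid-day arrays minus that of the mid-night arrays was -274.9 units in dnClk and 159.2 in WT at the same times. Of the 17 tested genes for antimicrobial peptides and immune recognition, Drsl5 was the 1 member; Listericin and dl also had p under 0.01 in the WT fit, with peaks at ZT 20.3 and ZT 1.62. Drsl4, the gene next to Drsl5, had a WT amplitude of 0.17 and Drs itself one of 0.59 with a peak at ZT 14.3, neither with p under 0.01.

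Abca3 encodes a transporter of the ABC-A class, whose mammalian relatives move lipids across membranes. It read 213.3, 257 and 308.4 in dnClk (lowest, median and highest) and 33.3, 100.15 and 247.4 in WT. The amplitude was 0.05 ± 0.06 in dnClk and 0.73 ± 0.12 in WT (SE). Mid-day exceeded mid-night by 3.95 units in dnClk and by 74.85 in WT on the linear scale. The level was 2.44-fold higher in dnClk (log2 difference 1.28 ± 0.13, SE; limma adjusted p = 2.2e-10), although the highest WT array, at ZT 0, overlapped the dnClk range. In WT its reading on the second day was below that of the first at each of 12 clock times.

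AsnS, the asparagine synthetase gene, had dnClk arrays between 129.9 and 195.8 except at ZT 4, where it read 387.4; the WT arrays ran from 30.1 at ZT 18 to 195.7 at ZT 6. Its dnClk amplitude of 0.27 ± 0.14 rested on that array and was 0.11 ± 0.07 without it (SE). The linear difference between mid-day and mid-night in dnClk was 62.22 units, against 54.75 in WT, and 7.62 without the array at ZT 4. AsnS and Jhbp1 were the only 2 of the 22 whose linear excess of mid-day over mid-night was at least as large in dnClk as in WT. Without the dnClk array at ZT 4 neither was. The rule selected for a day excess in WT, so this count is a description, with no share over all tested probe sets given. Linear units also depend on how the arrays of each genotype were processed. The Drsl5 difference was larger in size in dnClk but negative, with mid-night above mid-day. The level of AsnS was 1.81-fold higher in dnClk (limma adjusted p = 3.6e-06).

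Orp8, which encodes an oxysterol-binding protein-related protein of the family that carries sterols and phospholipids between membranes, was the 1 member lower in dnClk. It read 217.8, 363.7 and 578.5 in dnClk (lowest, median and highest) and 270.9, 592.2 and 908.2 in WT, 1.62-fold lower (log2 difference -0.70 ± 0.11, SE; limma adjusted p = 3.2e-06). The ranges overlapped. In dnClk it crested at ZT 4.63 with an amplitude of 0.28 ± 0.13 (limma unadjusted p = 0.10), near the WT peak at ZT 3.62, where the amplitude was 0.47 ± 0.09. Esyt2, an extended synaptotagmin that tethers endoplasmic reticulum to the plasma membrane, had amplitudes of 0.13 ± 0.05 in dnClk and 0.25 ± 0.06 in WT and no difference in level beyond its error (log2 difference -0.04, 95% interval -0.18 to 0.10; limma adjusted p = 0.63).

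The remaining members had dnClk amplitudes of 0.06 to 0.19 and WT amplitudes of 0.14 to 0.49. CG2444 had 0.13 ± 0.19 in dnClk against 0.49 ± 0.13 in WT, and CG7695 had 0.11 ± 0.22 against 0.47 ± 0.11 (SE). For both genes the dnClk error exceeded the fitted amplitude. The dnClk arrays of CG7695 read 179.2 to 323.7 on the first day and 397.3 to 537 on the second. The fit holds no term for day, so this step is part of its error. Of the probe sets without a gene name, 1626163_s_at had 0.06 in dnClk against 0.48 in WT, and 1625995_a_at had 0.10 against 0.44. CG3894 was dim, with dnClk arrays between 29.8 and 55.7 and WT arrays between 18.8 and 48.4. It had a dnClk amplitude of 0.19 ± 0.07 with a peak at ZT 8.03 (limma unadjusted p = 0.081), against 0.22 ± 0.06 at ZT 4.48 in WT (SE). spz5, a ligand of the Spätzle family, read between 50.7 and 86.9 units in dnClk and between 31.1 and 74.6 units in WT. Its amplitude was 0.13 ± 0.08 in dnClk and 0.26 ± 0.05 in WT (SE). Rip11, a partner of the recycling endosome GTPase Rab11, had an amplitude of 0.06 ± 0.05 in dnClk, where its fitted peak fell in the night, against 0.19 ± 0.05 in WT. The probe set shared by Unc-115a and Unc-115b, genes for actin-binding proteins, had an amplitude of 0.08 ± 0.03 in dnClk and 0.22 ± 0.05 in WT.

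**Figure D4:**
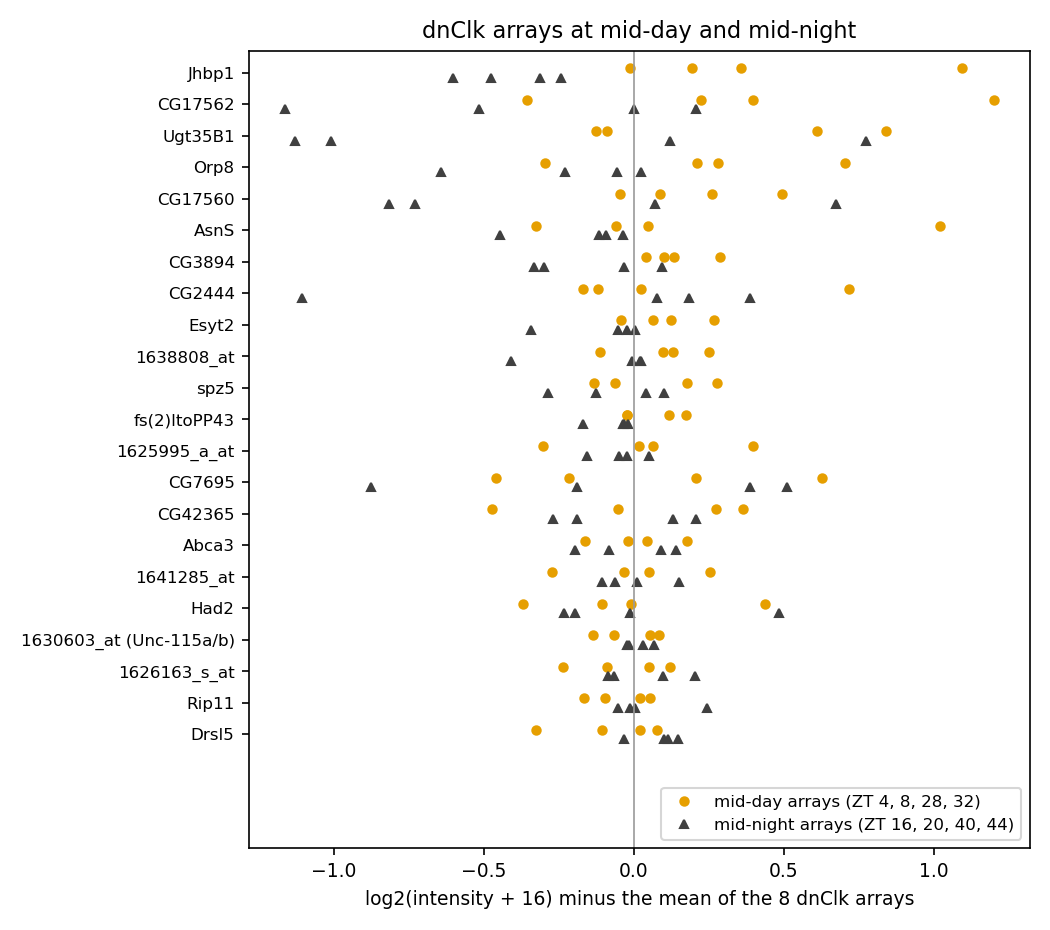
For each of the 22 probe sets, log2(intensity + 16) in the 4 mid-day and 4 mid-night dnClk arrays is shown minus the mean of those 8 arrays, with the largest day excess at the top. Only Jhbp1 has all mid-day points to the right of all mid-night points, and the lowest 5 probe sets have a mid-day mean below the mid-night mean.

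Most of the 22 read somewhat higher by day than by night in dnClk. There the mean of the 4 mid-day arrays was above that of the 4 mid-night arrays for 17 of the 22, or 77.3%, against 40.1% of all tested probe sets. The 5 on the other side were Drsl5, 1626163_s_at, Had2, 1630603_at and Rip11. The differences were small: their median over the 22 was 0.13 log2 units in dnClk, against -0.05 for all tested probe sets, and 0.56 in WT at the same times. A fitted dnClk peak from ZT 3 to under ZT 9 was found for 8 of the 22, or 36.4%, against 25.9% of all tested probe sets. The testis mean was also higher at mid-day than at mid-night, at 8.77 and 7.79 log2 units in dnClk and at 8.82 and 6.14 in WT at the shared times, and its part in these counts was not tested. With testis and accessory gland means as covariates, the dnClk amplitudes of CG17562, CG17560 and Jhbp1 were 0.85, 0.61 and 0.65, against 0.86, 0.62 and 0.63 without. Some other members moved further: CG7695 went from 0.11 to 0.37, CG3894 from 0.19 to 0.09 and 1626163_s_at from 0.06 to 0.007.

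Among themselves the 22 differed by time of peak. The 12 with a WT peak before ZT 6 include the reductases, Jhbp1, Abca3, Orp8, Ugt35B1 and spz5, and in dnClk 11 of the 12 had the mid-day mean above the mid-night mean, with a median difference of 0.26. The 10 with a later WT peak include Drsl5, AsnS, Esyt2, Rip11, Had2 and CG42365. Of these 6 had the mid-day mean above, with a median of 0.03. The division at ZT 6 was made after the values were seen and carries no test. In the WT course the fitted peak fell inside the window for 15 of the 22 on the first day alone and for 20 on the second day alone. The WT amplitude of AsnS was 0.90 on the first day and 0.35 on the second, and that of Jhbp1 0.62 and 1.21, whereas CG17560 had 1.19 and 1.16.

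Levels of these transcripts were mostly higher in dnClk. By limma's genotype term 18 of the 22 were higher, 81.8% against 39.3% of all tested probe sets, and 1 was lower, 4.55% against 17.7%. CG17562, CG17560 and Esyt2 passed in neither direction. The brightness filter used the mean of all 36 arrays, so a high dnClk signal could carry a probe set past it. This was so for CG3894, which is among the 18. Its WT mean of 5.54 log2 units lay below the mean of the dimmest tested probe set, and its dnClk mean was 5.85. The median log2 difference of the 22 was 0.53, against 0.25 over all tested probe sets. Every dnClk array exceeded every WT array for Drsl5, Had2, Rip11 and CG42365, 18.2% of the 22 against 6.3% of all tested probe sets. The counts depend on the scaling: with arrays centred on their medians 9 were higher and 4 lower, where 11.5% and 33.9% of all tested probe sets were. After quantile normalization 14 were higher and 1 lower, against 20.2% and 26.3%. Scaled to the hybridisation controls, 22 were higher and 0 lower, where 98.7% and 0.462% of all tested probe sets were. With both tissue means (testis, accessory gland) as covariates 15 were higher and 1 lower. The shares over all tested probe sets are not given for that setting, so these counts cannot be set against a background.

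Had2, a predicted hydroxy acid dehydrogenase gene, had the latest peak of the 22 and the second largest level difference. It read 130.9, 172.5 and 249.8 in dnClk (lowest, median and highest) and 27.7, 46.85 and 61.4 in WT, 3.22-fold higher in dnClk (log2 difference 1.69 ± 0.08, SE; limma adjusted p = 7.7e-19). CG42365 read 142.1, 205.2 and 266.3 in dnClk and 63.9, 93.35 and 121.5 in WT, 2.04-fold higher (limma adjusted p = 7.8e-14). Rip11 read 523.5, 606 and 701.2 in dnClk and 231.2, 385.05 and 463.3 in WT, 1.61-fold higher (limma adjusted p = 2.9e-11). The reductases CG17560 and CG17562 had level differences of 0.01 (95% interval -0.24 to 0.26; limma adjusted p = 0.94) and -0.29 (-0.55 to -0.02; limma adjusted p = 0.058).

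**Figure D5:**
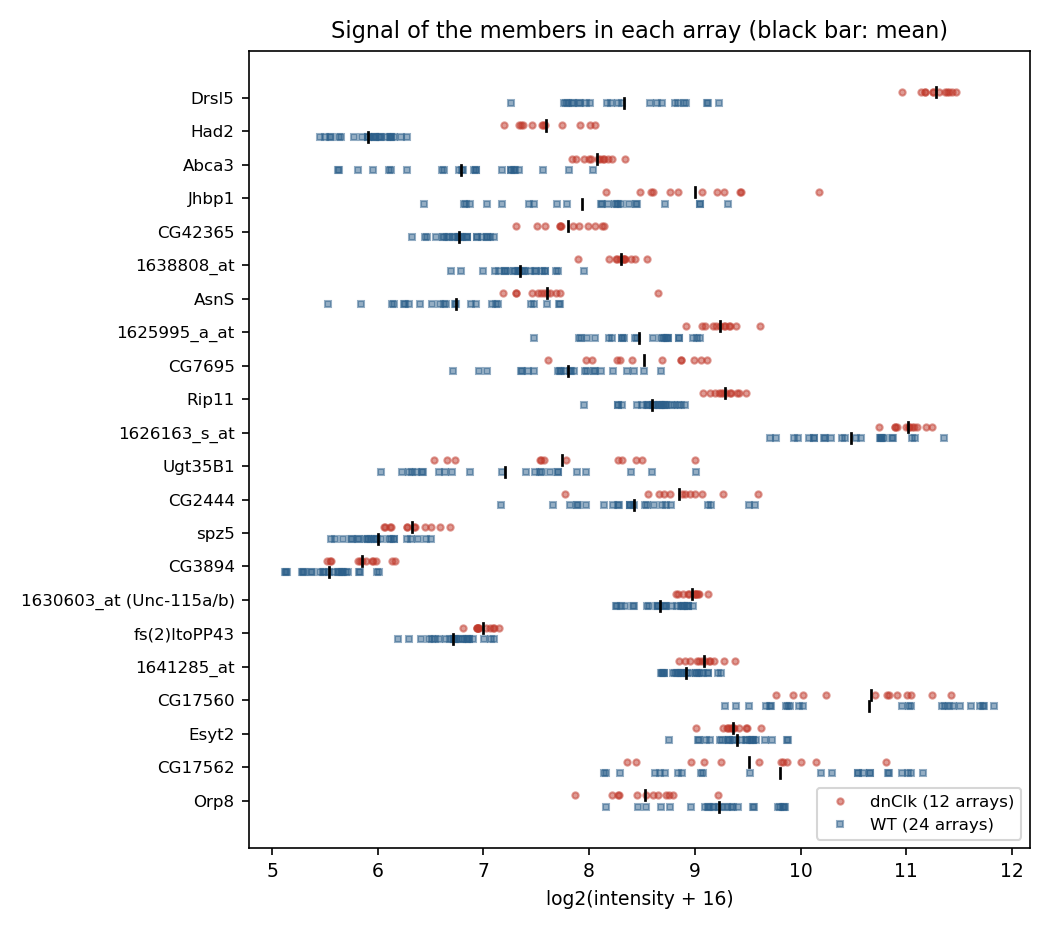
Each point is log2(intensity + 16) in 1 array for the 22 probe sets (12 dnClk arrays and 24 WT arrays, black bar: mean), ordered by the level difference. Drsl5, Had2, CG42365 and Rip11 have no overlap between genotypes, and Orp8 at the bottom is the 1 called lower in dnClk.

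Membership was soft at its borders. Just inside the p of the rule were CG42365 (p = 0.0077), the unnamed 1641285_at (p = 0.0067) and Rip11 (p = 0.0065), and just outside were CG6834 (p = 0.0104, peak at ZT 6.74) and CG13067 (p = 0.0109, peak at ZT 6.63). The nearest probe sets in phase were Ugt36D1 at ZT 2.94 before the window and pita at ZT 9.31 after it. For 8 of the 22 the WT peak lay within 1 SE of an edge of the window. With each of the 24 WT arrays left out in turn, 13 of the 22 were chosen every time. With limma's adjusted p under 0.05 in place of the p of the rule, 9 were chosen: CG17562, CG17560, Jhbp1, Drsl5, Abca3, Orp8, AsnS and the unnamed 1626163_s_at and 1625995_a_at. With the testis and accessory gland means in the WT fit, 18 of the 22 were still chosen, all but fs(2)ltoPP43, CG3894, Rip11 and 1641285_at. Second probe sets did not share the pattern: that of CG3894 had p = 0.12 in the WT fit, both further ones of fs(2)ltoPP43 had p = 0.81 and p = 0.33, and that of Orp8, below the brightness filter, had p = 0.36.

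The members with a symbol lie on 3R (7), 3L (3), X (3), 2R (3) and 2L (1), by the RefSeq gene table of Drosophila assembly Release 6, and CG17562 with CG17560 is the only pair of neighbours. By mean signal they range widely among the tested probe sets, CG3894 at percentile 3.11 and CG17560 at percentile 96.6. None of the other gene lists examined, which cover glycolysis, glycogen and trehalose, fatty acid synthesis and oxidation, lipolysis, cytochromes P450, glutathione transferases, chaperones, ribosomal proteins, the respiratory chain and the proteasome among others, held a member.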

How the data were processed

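Total RNA of pooled abdominal fat bodies was labelled with biotin by in vitro transcription and hybridised to 1 Affymetrix array per time point, per the labels' protocols. The authors deposited 1 linear intensity per probe set and array, made with MAS5 (version unstated) according to the submitters' processing notes, and their scaling was kept. Scanner files were not used here, and no genome build is named in these sources. Control probe sets (183) were set aside, leaving 18769.

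Deposited intensities were analysed as log2(intensity + 16), so folds understate changes of dim probe sets, and the 60% brightest (11261) were tested. The rule's WT fit and peak times use ordinary least squares; errors of amplitude and peak are delta-method SEs. Rhythm in dnClk is limma's moderated F on the 12 dnClk arrays alone. Level is limma's genotype term over all 36 arrays with 24 h terms per genotype. Adjusted p-values are Benjamini-Hochberg over all tested probe sets. Mid-day means ZT 4, 8, 28 and 32, mid-night ZT 16, 20, 40 and 44. R 4.3.3, limma 3.58.1, Python 3.11.15 and matplotlib 3.10.9 were used, and the fits were tested on simulated data.

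Symbols come from GEO's platform annotation, updated through RefSeq's gene table (Release 6): 13647 probe sets have 1 symbol, 402 several and 4720 none. The members, gene lists and tests were chosen with earlier results of these data known. Members with a symbol were named for large WT amplitude (12), small dnClk p (10), the most raised and most lowered levels (5 each), membership of a gene list, and closeness to the rule's thresholds; relatives and neighbours of members, and further members, were named after their values were seen. Alternatives were pseudocounts of 1 and 64, the brightest 40%, quantile normalization, median centring, tissue covariates, leaving out each array, limma's adjusted p for the rule and, added after seeing the data, scaling to the hybridisation controls and a block for time point at the shared times.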

Additional observations from a re-analysis of the deposited data

How the results depend on the processing

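The count of 0 rhythms in dnClk held under every alternative run. Members by the rule were 5 with median centring (CG17562, CG17560, Jhbp1, AsnS, Abca3), 9 with limma's adjusted p and 93 with tissue covariates. Leaving out single arrays gave 17 to 41, with 41 without WT ZT 18, 34 without WT ZT 36 and 17 without WT ZT 28. Members with an unadjusted p under 0.05 in dnClk were 7 with control scaling and 3 to 5 without single arrays (5 without dnClk ZT 20). Those with all mid-day above all mid-night dnClk arrays were 2 after quantile normalization, 3 with tissue covariates, 2 with control scaling and 1 to 6 without single arrays. The 6, without dnClk ZT 32, were CG17562, Jhbp1, Orp8, 1638808_at, Esyt2 and CG3894. Leaving out a mid-day or mid-night array can only ease such a separation, for any probe set. The shares over all tested probe sets are not given for these dnClk counts, so they cannot be set against a background. Members lower in dnClk were 2 with a pseudocount of 64, 4 with median centring, 0 with control scaling and 1 to 2 without single arrays, and members higher were 9 with median centring and 22 with control scaling. Level differences turned sign after quantile normalization for spz5 (-0.057), fs(2)ltoPP43 (-0.0565), Esyt2 (0.044) and CG3894 (-0.063). With median centring they did so for CG17560 (-0.38), spz5 (-0.073), fs(2)ltoPP43 (-0.11) and CG3894 (-0.076), and with control scaling for CG17562 (1.78), Orp8 (1.38) and Esyt2 (2.03). The median level difference of the 22 was 2.61 with control scaling, against 2.33 over all tested probe sets. The cause of these shifts was not tested. The labels share times but no replicate numbers, and arrays of the same time came from different flies. Time point as a replicate block over the 12 shared times was an alternative chosen after seeing the data. With it 16 were higher and 1 lower, where 32.3% and 14.7% of all tested probe sets were. With 1 array per time, the number of arrays limits the precision of the amplitudes.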

Other observations

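The number of mid-day transcripts depended on a few WT arrays and on whether tissue means were in the fit. The WT arrays at ZT 18 and ZT 36, in the dark and at lights off, had testis means of 9.93 and 10.24 log2 units, against 6.12 at ZT 16 and 6.58 at ZT 38. Without the array at ZT 18 the rule took 41 probe sets, 19 of the 22 among them, and without that at ZT 36 it took 34, 20 of the 22 among them. The WT arrays at ZT 24 and ZT 4 had similar testis means, 10.2 and 10.11 log2 units. Without each of these in turn the rule took 26 and 24 probe sets. With testis and accessory gland means in the WT fit it took 93, which held 18 of the 22. With no filter on low values it took 30, which held all 22. Other probe sets that enter under these settings were not described here, and the part of tissue makeup in their WT curves was not tested.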
